A study of Mus musculus with 3 samples.

Results

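A set of 41 genes of mitosis and of the G2/M transition was followed in RAW264.7 cells, a mouse macrophage tumour line that divides continuously in culture, before and after exposure to LPS (lipopolysaccharide, a molecule of the bacterial outer membrane that macrophages sense). The genes were listed by name for their known roles, with earlier results of these data known, and every probe set assigned to 1 of them alone was read. Of the 41 genes, 39 were read by 73 such probe sets, out of 12393 genes named on the array; Ccnb1 and Cdca8 had none and carry no value here. There were 3 groups with 1 array each, namely cells at 0 h, after 2 h and after 12 h of LPS. All 3 arrays used total RNA of the same line; the sources used here give neither the LPS dose nor the culture conditions. Without replicate arrays no comparison could be tested, so folds describe these 3 arrays. No untreated array at 2 or 12 h was analysed here, and LPS and time in culture cannot be told apart.

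Entry into mitosis depends on the kinase CDK1 bound to A-type and B-type cyclins, and exit depends on the anaphase-promoting complex, a ubiquitin ligase that marks the cyclins and securin for destruction. Between these steps the spindle is built by kinesin motors and microtubule-binding proteins, attached to centromeres under the watch of a checkpoint, and followed by division of the cytoplasm. The mRNAs of these genes are known to build up in G2 and M phase and to be low in cells that do not divide. Their promoters are known for the cell cycle genes homology region (CHR), an element bound by the repressive DREAM complex in resting cells and by B-MYB with MuvB in dividing ones, and for CCAAT boxes bound by NF-Y. LPS is known to slow the division of macrophages.

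The promoter sequences are shown because they are a feature that the choice of genes by name did not use. RefSeq promoters of GRCm38.p6, from 250 bases before to 50 after the annotated start site, were listed for 35 of the 41 genes, as 38 promoters since Ect2, Prc1 and Psrc1 had 2 listed starts each. The letters searched on both strands were TTTGAA and TTCGAA for the CHR, of which TTCGAA is its own reverse complement, and CCAAT for the CCAAT box. In the following windows, from 100 bases before to 30 after the start, 5′ to 3′ on the strand of the gene, capitals mark these matches on either strand.
Psrc1 (chr3:108383738-108383867, plus strand): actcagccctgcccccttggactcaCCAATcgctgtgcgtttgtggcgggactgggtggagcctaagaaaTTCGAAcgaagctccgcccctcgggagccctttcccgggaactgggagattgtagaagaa
Ccnb2 (chr9:70421525-70421654, minus strand): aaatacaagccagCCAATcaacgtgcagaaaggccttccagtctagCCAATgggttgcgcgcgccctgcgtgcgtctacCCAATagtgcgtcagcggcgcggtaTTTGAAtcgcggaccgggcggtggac
Cenpa (chr5:30666786-30666915, plus strand): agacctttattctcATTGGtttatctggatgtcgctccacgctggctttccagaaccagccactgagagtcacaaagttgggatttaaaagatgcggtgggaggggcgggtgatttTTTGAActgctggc
Cdc20 (chr4:118437314-118437443, minus strand): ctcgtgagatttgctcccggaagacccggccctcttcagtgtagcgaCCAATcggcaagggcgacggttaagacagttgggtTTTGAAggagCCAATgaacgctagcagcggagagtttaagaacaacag
Kif11 (chr19:37376282-37376411, plus strand): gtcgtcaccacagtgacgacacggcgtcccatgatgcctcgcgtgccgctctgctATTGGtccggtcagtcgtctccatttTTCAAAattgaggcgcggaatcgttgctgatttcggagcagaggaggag
Cdk1 (chr10:69352883-69353012, minus strand): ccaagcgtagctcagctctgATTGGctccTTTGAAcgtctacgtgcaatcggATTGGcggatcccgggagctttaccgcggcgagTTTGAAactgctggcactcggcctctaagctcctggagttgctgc
Nusap1 (chr2:119618198-119618327, plus strand): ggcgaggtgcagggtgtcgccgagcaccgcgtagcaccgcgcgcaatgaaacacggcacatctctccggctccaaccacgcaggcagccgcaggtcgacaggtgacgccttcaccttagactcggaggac
Psrc1, Ccnb2 and Cenpa were chosen for the largest decreases at 12 h, Cdc20 and Kif11 for a CHR lying before the start, and Cdk1 and Nusap1 as a gene with both elements and a gene with neither.

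Within 100 bases before to 50 after the start, a CHR was found in 28 of the 38 promoters, or 73.7%, against 5.95% of the 12566 promoters of genes named on the array and 8.59% of all 32851 promoters listed. A CCAAT box was found in 29 of 38, or 76.3%, against 23.9% of array gene promoters. Both elements were present in 24 of 38, against 1.77% of array gene promoters. At 22 distinct CHR sites in 21 genes, a CCAAT box lay before the CHR in the same window, 9 to 102 bases away from first base to first base, with a median of 34.5. A CHR and a CCAAT match shared bases at 1 place in these promoters. The contrast was smaller over the full window, from 250 bases before to 50 after the start. There a CHR was found in 30 of 38 promoters, or 78.9%, against 14.6% of array gene promoters. A CCAAT box was found there in 32 of 38, or 84.2%, against 37.1%. The E2F letters TTTCCCGC, TTTCGCGC, TTTGCCGC and TTTGGCGC, typical of G1/S promoters, were found in 1 of 38 promoters over the full window, that of Cdk1, against 3.38% of array gene promoters. A match is a run of letters and not a measured binding site.

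**Figure D1:**
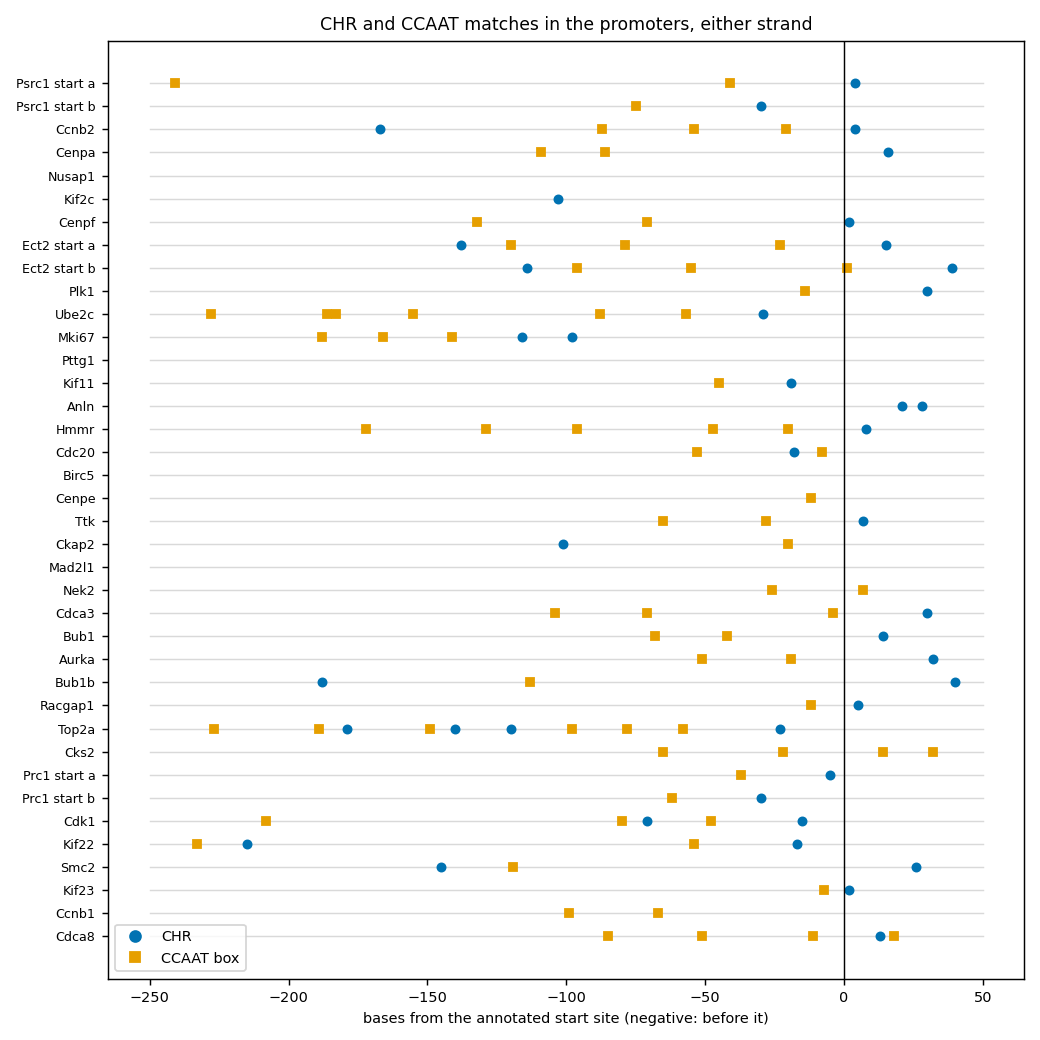
Position of CHR matches (circles) and CCAAT boxes (squares) on either strand in the 38 listed promoters, in bases from the annotated start site, with genes ordered from the lowest log2 difference at 12 h against 0 h at the top and the unmeasured Ccnb1 and Cdca8 at the bottom. Most CHR matches lie near the start, with CCAAT boxes mostly before them; Nusap1, Pttg1, Birc5 and Mad2l1 have neither.

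Signals are linear intensities after each array was scaled to a common trimmed mean. Signals under 34.96, the 40th percentile over the 3 scaled arrays, were raised to that floor before log2 was taken. A gene was called lower or higher when 2 arrays differed at least 2-fold. The only error the arrays hold is the disagreement between probe sets of 1 gene. Its SD was taken over all genes with more than 1 probe set above the floor on both arrays. On the log2 scale it was 0.34 at 12 h (2730 genes) and 0.32 at 2 h (2708 genes), each set against 0 h. Between 12 and 2 h the SD was 0.31 (2684 genes). This error leaves out the spread between cultures. All 10 macrophage markers were above the floor on some array, with signals from 168 to 6308. Of 29 markers of T cells, B cells, fibroblasts, epithelium and endothelium, 6 were above it on any array, none over 90.5, and their summed signal was 719, 528 and 674 at 0, 2 and 12 h.

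All 39 mitosis genes had a lower signal at 12 h of LPS than at 0 h, although Kif23 was level after quantile normalization and Cdca3 was at 0.35 by the median of its probe sets. Of these, 17 were at least 2-fold lower and none was higher by that size, where the background over all 8629 measured genes was 2.4% lower and 3.01% higher. Of the 17, 11 were 2-fold lower under every other scaling, floor and choice of probe sets that gave them a value. The median log2 difference of the 39 genes was -0.92, against -0.05 over all measured genes, and 54.7% of all genes had a difference under 0. A difference as low as the median of these genes was passed by 3.04% of all genes. At 1.5-fold, 33 of 39 were lower and none higher, where 10.3% of all genes were lower and 8.32% higher. By the brightest probe sets, the decrease exceeded the probe set SD in 37 of 39 genes, all but Aurkb and Kif23. It did so in 22.9% of all genes. The decreases were moderate in size: 3 of 39 genes were at least 3-fold lower, among 27 genes in all. The 17 genes made up 8.21% of the 207 genes at least 2-fold lower and 43.6% of the mitosis genes measured. In a cell population, fewer dividing cells and less of these mRNAs per dividing cell cannot be told apart.

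**Figure D2:**
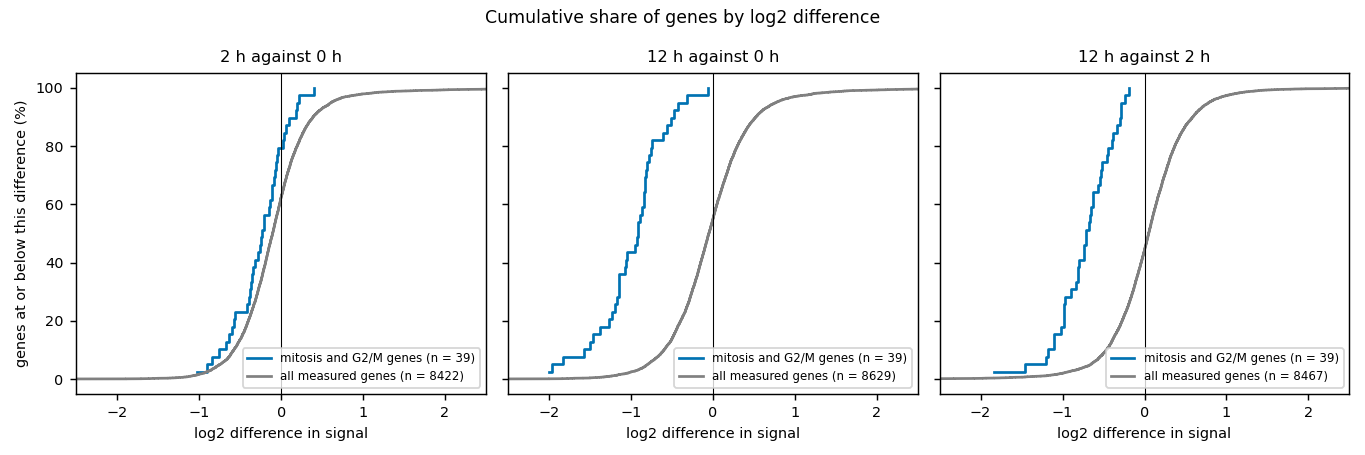
Cumulative share of the mitosis and G2/M genes (blue) and of all measured genes (grey) at or below each log2 difference in signal, in 3 panels, 1 per pair of times. The curve of the 39 genes lies left of 0 throughout in both comparisons of the 12 h array and close to that of all genes at 2 h, where the medians were -0.24 and -0.10.

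Among the cyclins and their kinase, Ccnb2, which encodes the Golgi-associated mitotic cyclin B2, had signals of 776, 708 and 199 at 0, 2 and 12 h. It was high at 0 and 2 h and low at 12 h, 3.91-fold below 0 h. Ccna2, which encodes cyclin A2 of S phase and early mitosis, had 657, 609 and 347, a 1.89-fold decrease at 12 h. Cdk1, the catalytic partner of these cyclins, changed less, with 1194, 1147 and 837 and a 1.43-fold decrease. Cks2, a small subunit that binds CDK1, had 879.6, 838 and 525 and was 1.68-fold lower. All 4 kept nearly their 0 h signal at 2 h, with log2 differences from -0.13 to -0.06, and were lowest at 12 h. The median of this group at 12 h was -0.83 on the log2 scale, with only Ccnb2 past 2-fold.

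The mitotic kinases had a median log2 difference of -0.82 at 12 h, and 1 of 7 was at least 2-fold lower. This was Plk1, the Polo-like kinase that acts at centrosomes and kinetochores, with signals of 439.8, 275 and 188 at 0, 2 and 12 h and a 2.34-fold decrease. Aurka, the centrosomal Aurora kinase, had 569.9, 368 and 323, so that most of its decrease was already present at 2 h. Ttk, the checkpoint kinase also called MPS1, had 198, 133 and 105 and was 1.88-fold lower at 12 h. Both had signals at 2 h closer to those at 12 h than at 0 h. Bub1 and Bub1b, which encode the checkpoint kinase BUB1 and the related BUBR1, behaved otherwise. Bub1 had 550.0, 508 and 311 and Bub1b 376, 339.6 and 214, with little difference at 2 h and decreases of 1.77-fold and 1.75-fold at 12 h. Nek2, a centrosome-separating kinase, was 1.79-fold lower at 12 h, with 123, 94.3 and 69.1. For Aurkb, the kinase of the chromosomal passenger complex, the brightest probe set gave 267, 351 and 215, highest at 2 h and only 1.24-fold lower at 12 h. Its other probe set gave 197, 115 and 97, lowest at 12 h, so the course of Aurkb at 2 h is uncertain.

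**Figure D3:**
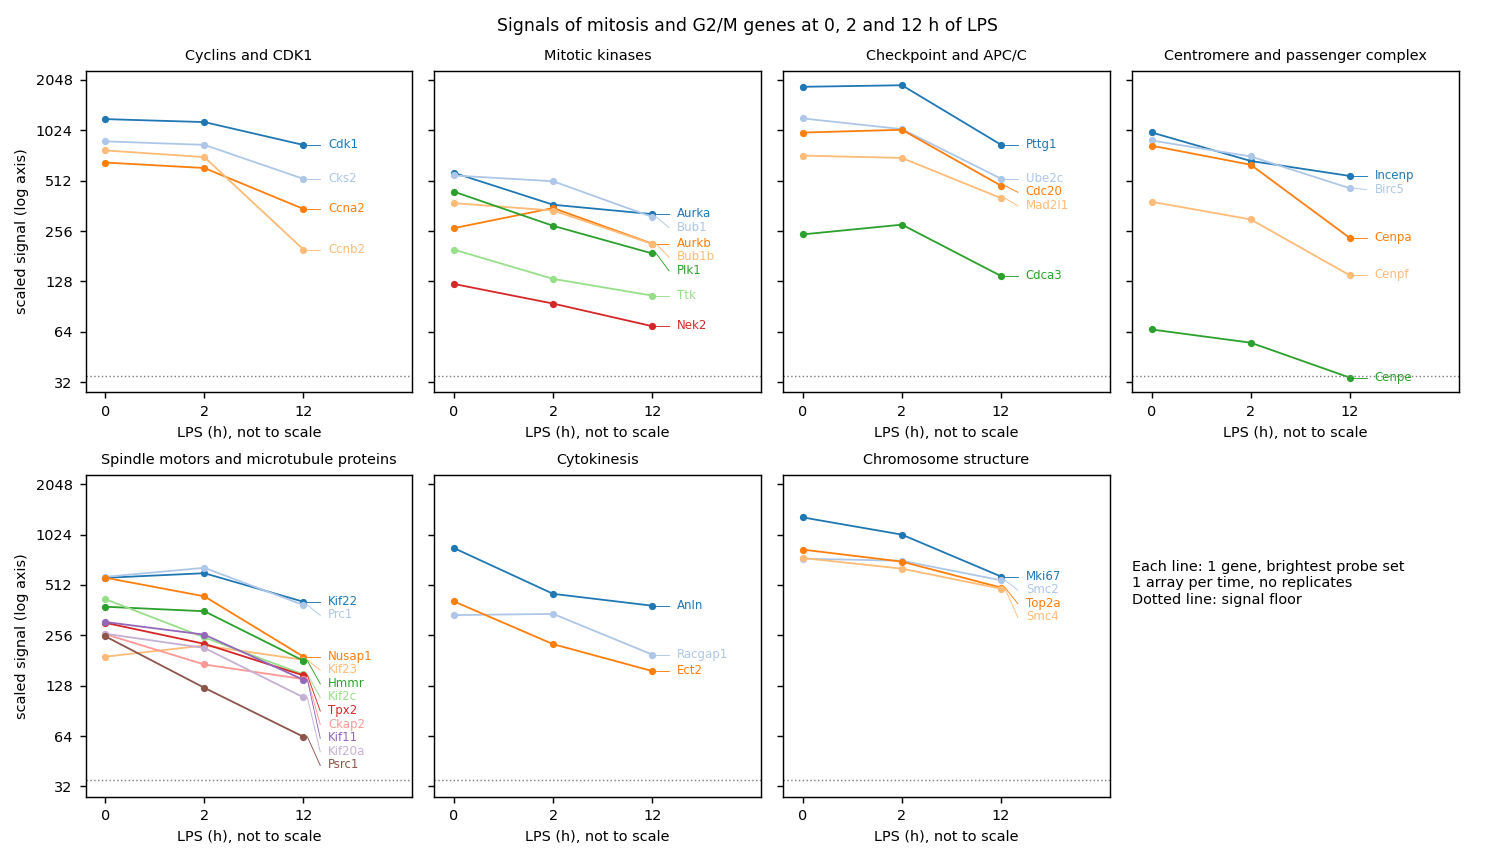
Scaled signal (log axis) of each of the 39 genes at 0, 2 and 12 h of LPS, 1 array per time, in panels by role, from the brightest probe set of each gene, with the signal floor as a dotted line. Every line is lowest at 12 h; Ccnb2 stays near its 0 h signal at 2 h and drops afterwards, whereas Psrc1, Anln and Ect2 are already lower at 2 h.

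The genes of the checkpoint and of the anaphase-promoting complex kept their signals at 2 h and had lower ones at 12 h. Their median log2 difference was 0.03 at 2 h and -1.05 at 12 h, where 3 of 5 were at least 2-fold lower. Pttg1, which encodes securin, the guardian of sister chromatid cohesion, had 1863, 1903 and 839.6 at 0, 2 and 12 h. Cdc20, an activator of the complex, had 993, 1031 and 478. Ube2c, the ubiquitin-conjugating enzyme that works with it, had 1206, 1041 and 526. These were high at 0 and 2 h and 2.22-fold, 2.08-fold and 2.29-fold lower at 12 h than at 0 h. Mad2l1, which encodes the checkpoint protein MAD2 that restrains CDC20, had 723, 699.8 and 403 and was 1.80-fold lower. Cdca3, a promoter of entry into mitosis, had 244, 279.5 and 138 by its brightest probe set and was 1.77-fold lower at 12 h than at 0 h.

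Among genes of the centromere and of the chromosomal passenger complex, all 5 measured were at least 1.5-fold lower at 12 h by their brightest probe sets. Of these, 2 passed 2-fold. Cenpa, the histone H3 variant that marks centromeres, had 828, 637 and 233 at 0, 2 and 12 h, 3.56-fold lower at 12 h than at 0 h. Cenpf, a large kinetochore protein, had 383, 300.4 and 139 and was 2.75-fold lower. In both, the larger step came between 2 and 12 h. Birc5, which encodes survivin, had 890.0, 714 and 462, and Incenp, the scaffold of the passenger complex, had 994, 671 and 546. Their decreases at 12 h were 1.93-fold and 1.82-fold. The other Incenp probe sets gave smaller decreases, of 1.40-fold and 1.33-fold. Cenpe, a kinetochore kinesin, had 66, 55.1 and 34.1; the 12 h value was under the floor, so it was at least 1.89-fold lower. It was the only one of the 39 genes not above the floor on all 3 arrays.

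The spindle motors and microtubule proteins held the widest range, with log2 differences from -1.99 to -0.06 at 12 h and 7 of 11 genes at least 2-fold lower. Psrc1, which encodes a spindle protein of anaphase, had 253, 124 and 63.4 at 0, 2 and 12 h, a stepwise decrease that reached 3.98-fold at 12 h. Nusap1, which binds microtubules near chromosomes, had 566, 438 and 191 and was 2.96-fold lower. Kif2c, the microtubule-depolymerising kinesin MCAK, had 422, 249 and 149.6 by its brightest probe set, 2.82-fold lower at 12 h. Psrc1 and Nusap1 were lower at both later times than at 0 h, whereas for Kif2c the 2 h direction differed between probe sets, one of which gave 207, 221 and 161. Kif20a, a kinesin of the central spindle, was 2.40-fold lower at 12 h with 262, 215 and 109. Kif11, which pushes spindle poles apart, was 2.21-fold lower with 308, 258 and 139. Hmmr had 379, 357 and 180.5 and Tpx2, the activator of Aurora A on the spindle, 304, 228 and 148, decreases of 2.10-fold and 2.06-fold. By the brightest probe sets, more of the decrease in these 4 genes lay between 2 and 12 h than before 2 h. For Hmmr this timing differed between probe sets, one of which gave 175, 129 and 120, mostly lower by 2 h. Ckap2 was 1.86-fold lower with 260.2, 171 and 140.1, mostly by 2 h. Prc1, the bundler of the central spindle, had 572, 648 and 388 and was 1.48-fold lower at 12 h. Kif22, a chromosome-arm kinesin, had 565, 602 and 406 by its brightest probe set and was 1.39-fold lower. By these values Prc1 and Kif22 were highest at 2 h. The other Kif22 probe sets were highest at 0 h, with 97.0, 83.5 and 46.5, and 162, 103 and 63.3. Kif23, the motor of centralspindlin, had 191, 223 and 183; its 12 h and 0 h signals differed by 1.04-fold, less than the SD between probe sets.

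The 3 cytokinesis genes had a median log2 difference of -1.14 at 12 h. Anln, which encodes the actin-binding protein anillin of the cleavage furrow, had 849.7, 453 and 385 at 0, 2 and 12 h. Ect2, the exchange factor that activates RhoA at the furrow, had 408, 227 and 157. Both dropped early: the 2 h signals lay nearer to those at 12 h than to those at 0 h, with final decreases of 2.21-fold and 2.60-fold. Racgap1, the partner of the KIF23 motor in centralspindlin that recruits ECT2, had 338, 344 and 196. It was level at 2 h and 1.72-fold lower at 12 h.

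Of the 7 role groups, chromosome structure had the smallest decrease, with a median of -0.68 at 12 h and 1 of 4 past 2-fold. That gene was Mki67, which encodes the proliferation marker Ki-67, a coat of mitotic chromosomes, with 1297, 1023 and 575 and a 2.26-fold decrease. Top2a, the DNA topoisomerase that untangles sister chromatids, had 833, 706 and 494 and was 1.69-fold lower. The condensin ATPase genes Smc2 and Smc4 had 735, 714 and 546, and 742, 641 and 486. Their decreases at 12 h were 1.35-fold and 1.52-fold by the brightest probe sets, both larger than the SD between probe sets over all genes. The other Smc4 probe sets gave log2 differences of -0.18, below that SD, and -0.57.

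**Figure D4:**
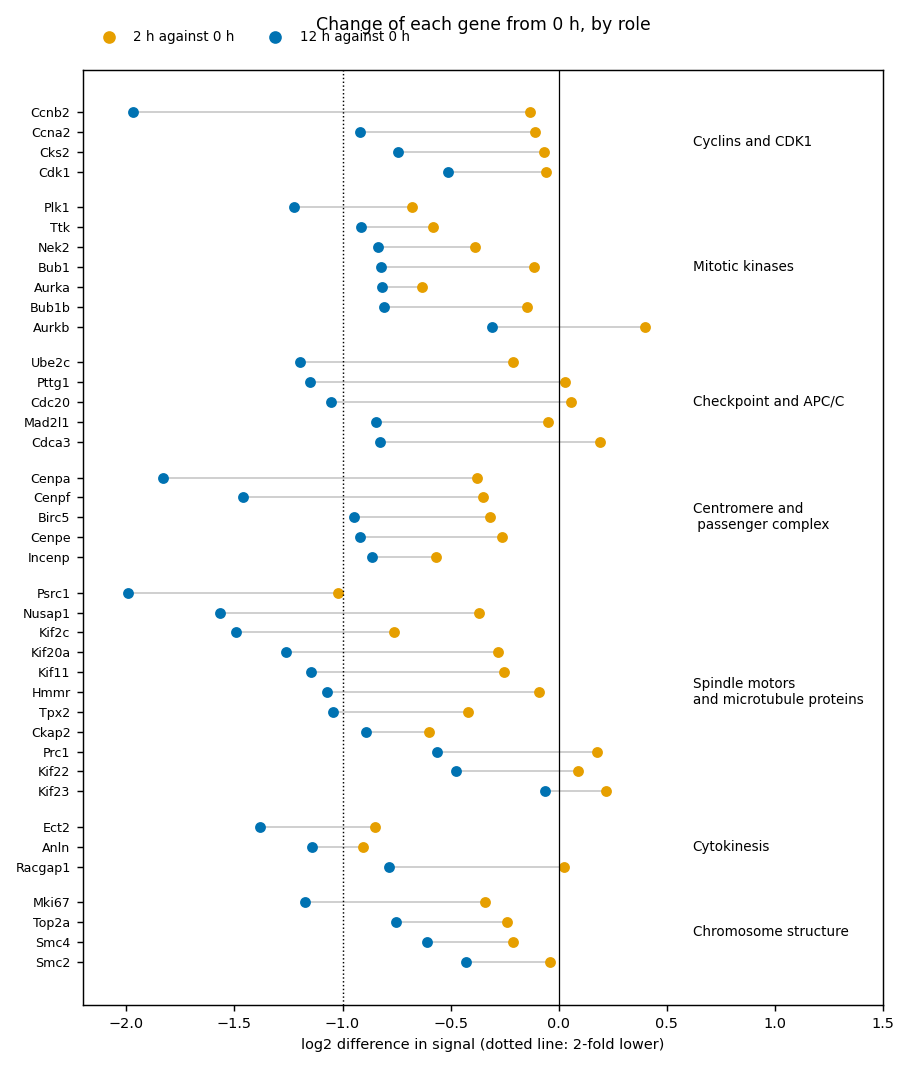
Log2 difference in signal of each gene for 2 h against 0 h (orange) and 12 h against 0 h (blue), grouped by role and ordered within a role by the 12 h value, with 2-fold lower as a dotted line. All 39 blue points lie left of 0 (Kif23 is level after quantile normalization, and Cdca3 is at 0.35 by the median of its probe sets), and 17 lie at or beyond 2-fold; 1 orange point, Psrc1, does.

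At 2 h the set as a whole was little changed and its members differed. The median log2 difference was -0.24, against -0.10 over all 8422 measured genes, and 31 of 39 genes were below 0, where 62.4% of all genes were. Only Psrc1 was 2-fold lower, at 2.03-fold, against a background of 1.69%, and none was higher by that size, where 2.09% of all genes were. At 1.5-fold, 7 of 39 genes were lower and none higher, where the background was 9.64% lower and 5.6% higher. The 7 genes lower by 1.5-fold were Psrc1, Anln at 1.88-fold, Ect2 at 1.80-fold, Kif2c at 1.70-fold, Plk1 at 1.60-fold, Aurka at 1.55-fold and Ckap2 at 1.52-fold. The 7 genes came from the spindle, cytokinesis and kinase groups. For Kif2c the log2 difference at 2 h turned to 0.10 with suffixed probe sets left out. With arrays set to one median, Plk1, Aurka and Ckap2 were at -0.53, -0.49 and -0.46, under 1.5-fold. The decrease exceeded the probe set SD in 15 of 39 genes and in 26.6% of all genes. Scaling bears on this comparison: with arrays set to one median the median of the 39 genes was -0.09, that of all genes 0.03, 23 of 39 genes were below 0 and none was 2-fold lower. Below 0 in every alternative were 21 of 39.

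Every gene of the set had a lower signal at 12 h than at 2 h, although Cdca3 turned to 0.55 by the median of its probe sets and Pttg1 to 0.13 with suffixed probe sets left out. The median log2 difference for 12 h against 2 h was -0.71, against 0.05 over all 8467 measured genes, and 44.2% of all genes had a difference under 0. At least 2-fold lower were 7 of 39, where the background was 1.98%, and at least 1.5-fold lower were 25, where it was 6.45%. None was higher by 2-fold or 1.5-fold, where 2.65% and 10.2% of all genes were. The decrease exceeded the probe set SD in 34 of 39 genes and in 17.5% of all genes. The 7 genes were Ccnb2 at 3.57-fold, Cenpa at 2.74-fold, Nusap1 at 2.29-fold, Pttg1 at 2.27-fold, Cenpf at 2.16-fold, Cdc20 at 2.16-fold and Cdca3 at 2.03-fold, of which Ccnb2, Cdc20 and Cenpa stayed past 2-fold under every other scaling, floor and choice of probe sets that gave them a value. Of the 7 genes lower by 1.5-fold at 2 h, Anln, Aurka and Ckap2 changed little further, at 1.18-fold, 1.14-fold and 1.22-fold. Psrc1, at 1.96-fold, and Kif2c, at 1.66-fold, went on to lower values. The comparisons share arrays, so these sizes are set side by side and were not related to each other by a test.

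All probe sets were then read one by one. Of the 73, 63 were above the floor on all 3 arrays and 5 were under it on all of them; those 5 carry no information. At 12 h against 0 h, 66 of 67 measured probe sets were lower and 28 at least 2-fold lower, where 55.2% and 2.53% of all measured probe sets were. In 18 genes more than 1 probe set was above the floor on both arrays, and in 17 of them all such probe sets were lower. The exception was Cdca3, whose dimmer measured probe set gave 41.8, 36.5 and 53.3 at 0, 2 and 12 h, a log2 difference of 0.35. Sizes differed more than direction. The 3 Kif11 probe sets gave -1.46, -1.21 and -1.15, and the 2 for Ccna2 gave -1.14 and -0.92. For Kif2c the brightest gave -1.49 and the others -0.69, -0.38 and -0.36, and for Nusap1 a dim second probe set gave -0.29 beside -1.57. For Pttg1, -1.15 and -1.16 stood beside -0.11 by a dim one. For Hmmr the brightest gave -1.07 and the others -0.99, -0.54 and -0.35. Kif23, almost level by its brightest probe set, was at -0.68 by another, Kif22 at -1.36 and -1.06 beside -0.48, and Racgap1 at -1.55 beside -0.78. The SD between probe sets within these genes was 0.46, against 0.34 over all genes. At 2 h, 51 of 68 measured probe sets were below their 0 h signal and 1 was 2-fold lower, where 60.8% and 1.59% of all probe sets were. Between 2 and 12 h, 64 of 68 were lower and 13 at least 2-fold lower, where 46% and 2.15% were.

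**Figure D5:**
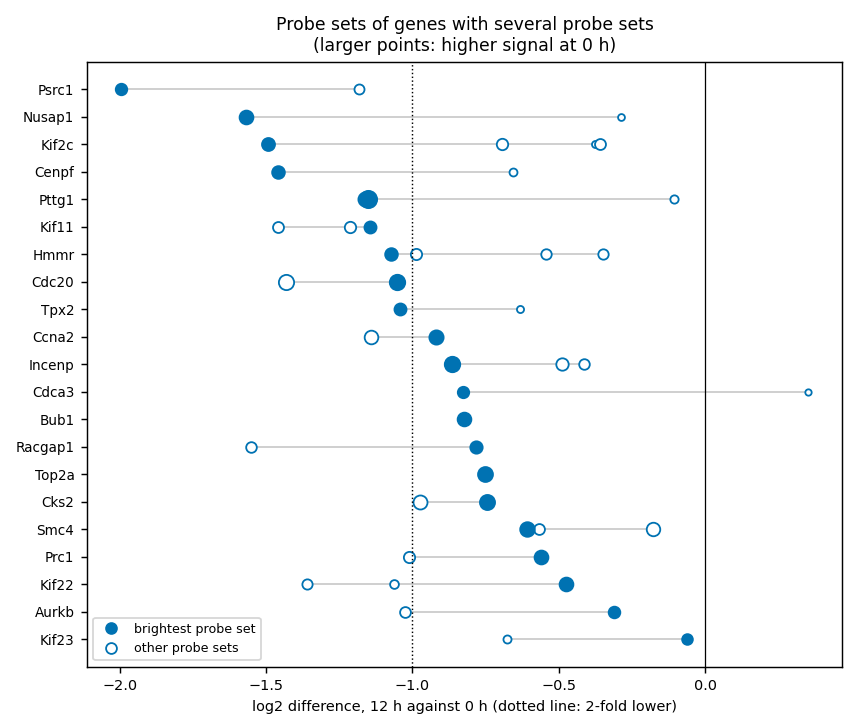
Log2 difference for 12 h against 0 h of every measured probe set in the genes with several probe sets, the brightest one filled and the others open, with larger points for higher signals at 0 h and a line spanning the probe sets of a gene. All points but 1, the dimmer Cdca3 probe set, lie left of 0; Nusap1 has the widest span among probe sets above the floor on both arrays, apart by 1.28.

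The promoter elements were set beside the size of the decrease as a description. The 24 measured genes with a CHR within 100 bases before to 50 after a listed start had a median log2 difference of -0.98 at 12 h, and the 9 without one had -0.92. Of these 9, Kif2c and Ckap2 held a CHR just outside the window, starting 103 and 101 bases before the start. Both groups spanned a wide range, from -1.99 to -0.06 with the element and from -1.57 to -0.74 without it. Single genes went either way. Cdk1, with CHR and CCAAT letters in the window shown, was 1.43-fold lower. Nusap1, with neither, was 2.96-fold lower, the largest decrease of the 9. Psrc1, with both letters in the window shown, was 3.98-fold lower, the largest decrease of the 24. Cks2, without a CHR, was 1.68-fold lower, the smallest decrease of the 9. Sequence farther than 250 bases before a start was not searched.

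Other mitosis genes, listed for their role in the kinetochore, spindle, anaphase-promoting complex, cohesin and condensin, and mitotic entry, were lower too, but by less. Of 82 measured, 9 were at least 2-fold lower at 12 h than at 0 h and none higher, with a median log2 difference of -0.48, and 75 of 82 were below 0. Over all genes 2.4% were 2-fold lower, 3.01% were higher and 54.7% were below 0, and with lists this short the counts in each are small. The spindle and cytokinesis list had a median of -0.67 and 3 of 19 genes lower, namely Depdc1a, at least 3.06-fold, Nde1, a centrosomal dynein partner, at 2.42-fold and Aspm, a spindle pole protein, at 2.01-fold. The cohesin and condensin list had -0.58 and 3 of 13 lower, which were the condensin subunit genes Ncapd2 at 2.62-fold, Ncapg2 at 2.39-fold and Ncapg at 2.18-fold. Ncapg2 had 323, 141 and 135 at 0, 2 and 12 h, nearly its whole decrease present by 2 h. The mitotic entry list had -0.57, with Cdc25c, the CDK1-activating phosphatase, at least 2.20-fold lower. The kinetochore list had -0.40, with Cenpn at 2.30-fold and Spc25, of the NDC80 complex, at 2.16-fold lower. The list for the anaphase-promoting complex had -0.23, and none of its 14 genes was 2-fold apart. Beside subunits it held another activator gene, Fzr1, and another conjugating enzyme gene, Ube2s. At 12 h against 0 h Fzr1 was lower and Ube2s slightly higher, both by less than 2-fold. The activator and conjugating enzyme genes Cdc20 and Ube2c, outside this list, were at least 2-fold lower as described above.

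Cell cycle transcription regulators, listed together with the CDK inhibitor genes Cdkn1a and Cdkn1b, had smaller differences. Of 20 measured genes of this list, none was 2-fold lower at 12 h. E2f3 was 2.11-fold higher, with 42.6, 72.2 and 89.8 at 0, 2 and 12 h. Over all genes 2.4% were 2-fold lower at 12 h and 3.01% higher. The median of the list was -0.22. Foxm1, an activator of G2/M genes, had 135, 151 and 123 at 0, 2 and 12 h. Mybl2, which encodes B-MYB, had 203, 165 and 167, and E2f4, the E2F of DREAM, had 138, 113 and 118. By the brightest probe sets, the differences of these 3 genes between 12 h and 0 h were below the SD between probe sets. Foxm1 had 4 probe sets and Mybl2 had 2, and the dimmer ones are not shown. Cdkn1a, which encodes the CDK inhibitor p21, had 596, 1325 and 638, 2.23-fold higher at 2 h than at 0 h and back near the 0 h signal at 12 h. Cdkn1b, which encodes p27, had 71.7, 53.8 and 62, and E2f1 had 164, 109.6 and 136.

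DNA replication and G1/S genes, the neighbouring phase of the cycle, are set beside them. Their median log2 difference was -0.28 at 12 h, with 1 of 45 genes 2-fold lower, namely the thymidine kinase gene Tk1 at 2.24-fold. At 2 h it was -0.30, with 5 of 45 lower, and for 12 h against 2 h it was 0.00, with 2 of 45 higher. Over all genes 2.4% were 2-fold lower at 12 h, 1.69% were 2-fold lower at 2 h and 2.65% were 2-fold higher at 12 h against 2 h. At 12 h, 24 of the 45 were below their 2 h signal and 21 above it, where 44.2% of all genes were below theirs. The 5 genes, named after their values were seen, were Cdc6, Cdt1, Rpa2, Ccne2 and Ung. Cdc6, which loads the replicative helicase, had 136, 47.3 and 161 at 0, 2 and 12 h, low only at 2 h, and Ccne2, which encodes cyclin E2, had 241, 118 and 273. No test of a difference between these genes and the mitosis genes was possible with 1 array per time. With arrays set to one median, 1 of 45 G1/S genes was 2-fold lower at 2 h.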

How the data were processed

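RNA from RAW264.7 cells at 0, 2 and 12 h of LPS was hybridised to 1-colour Affymetrix-type arrays, 1 per time. Per the labels, targets were made from 5 µg of total RNA by a modified Affymetrix procedure. The authors deposited linear intensity values for 22690 probe sets. Their 2% trimmed means were 150.05 on all 3 arrays, so they had been scaled before deposit; the sources used here do not name software or background correction, and a change in total mRNA would not be seen. Probe sets with 1 gene in the platform annotation (20393, of which 20364 matched RefSeq GRCm38.p6 by gene identifier) were used, 691 with several genes were not, and 1606 were not listed. Arrays were rescaled to a common 2% trimmed mean without controls, the floor and log2 were applied, and the probe set with the highest mean log2 signal stood for a gene. The 39 genes were named in full; other genes were named as up to 4 per list with the largest difference of at least 2-fold at 12 h, with Foxm1, Mybl2, E2f1, E2f4, Cdkn1a and Cdkn1b always; G1/S genes lower at 2 h were named in addition. Actb, as a reference, had signals of 5161, 5824 and 5904. The genes and lists were chosen with earlier results of these data known. No p-value was computed, since each time had 1 array, and the number of arrays limits the precision. The alternatives were other scalings, the deposited scale, a lower and a higher floor (20th, 60th percentile), a pseudocount of 32, the median of all probe sets per gene, leaving out probe sets with a letter suffix (transcript variants of 1 gene as well as possible cross-hybridisation), and folds of 1.5 or 3. The counting was run on simulated data as a check of the code. Only brighter genes were changed there, and recovery was required only for changes larger than any in this set. It does not bear on calls near 2-fold. Python 3.11.15, numpy 2.4.6, pandas 2.3.3 and scipy 1.17.1 were used.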

Additional observations from a re-analysis of the deposited data

How the results depend on the processing

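No paired analysis was possible because each time had 1 array. The median log2 difference of the 39 mitosis genes kept its sign and moved by less than the SD between probe sets in all 8 alternatives run on it, from -0.92 to -0.83 at 12 h against 0 h, from -0.26 to -0.09 at 2 h against 0 h and from -0.81 to -0.59 at 12 h against 2 h. Below 0 at 12 h against 0 h in every such alternative were 37 of 39 genes; Cdca3 was at 0.35 by the median of its probe sets and Kif23 at 0.00 with quantile normalization. At least 2-fold lower in every alternative that gave them a value were 11 of the 17 genes. Hmmr, Kif11, Kif2c, Nusap1, Pttg1 and Tpx2 were not: their smallest decreases were -0.66, -0.99, -0.36, -0.93, -0.11 and -0.84. At 12 h against 2 h, Cdca3 reversed to 0.55 by the median over probe sets and Pttg1 to 0.13 with suffixed probe sets left out.

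Counts depended on the fold. At 1.5-fold, 33, 7 and 25 of the 39 genes were lower at 12 h against 0 h, 2 h against 0 h and 12 h against 2 h, and at 3-fold 3, 0 and 1 were. Over all genes, 10.3%, 9.64% and 6.45% were lower at 1.5-fold in these comparisons and 8.32%, 5.6% and 10.2% higher. At 3-fold, 27, 13 and 48 of 8629, 8422 and 8467 measured genes were lower, and 101, 87 and 55 higher. Psrc1, 2-fold lower at 2 h, was not with median scaling, quantile normalization, a pseudocount or the median over probe sets, which left 0 genes. At 12 h against 2 h, 11 genes were lower with median scaling and 4 of 29 with suffixed probe sets left out. Of the 82 other mitosis genes measured, at 1.5-fold 33, 10 and 20 were lower and 2, 1 and 3 higher. At 3-fold, 1, 0 and 0 of them were lower. A pseudocount gave 5 lower at 12 h against 0 h and 2 at 12 h against 2 h. The floor at the 20th percentile gave 1 higher at 12 h. At 2 h, 1 of them was lower with median scaling, quantile normalization, the floor at the 60th percentile, a pseudocount and the median over probe sets. The cohesin and condensin median at 12 h against 2 h was -0.18 by the median over probe sets. Of the G1/S genes lower at 2 h, median scaling and the removal of suffixed probe sets each left 1, quantile normalization and the median over probe sets 3, a pseudocount 2, and folds of 1.5 and 3 gave 8 and 0; at 12 h against 0 h these folds gave 10 and 0 lower, and at 12 h against 2 h they gave 6 and 1 higher and, at 1.5-fold, 2 lower. The floor at the 60th percentile and the removal of suffixed probe sets each left 1 higher. Of the regulators, E2f3 was under 2-fold at 12 h with the 60th percentile floor and with a pseudocount, leaving 0 higher; 1 was lower at 12 h against 2 h with either and with the median over probe sets, 2 were lower at 1.5-fold at 12 h and at 2 h, 2 were higher at 1.5-fold at 2 h and 1 at 12 h against 2 h, and 0 passed 3-fold. In the shorter promoter window, 0 of 38 promoters held the E2F letters. Over all genes, 73 were lower and 225 higher at 2 h with median scaling and 86 and 200 with quantile normalization, against 142 and 176; at 12 h against 2 h median scaling gave 226 lower and 178 higher, against 168 and 224. At 12 h against 0 h, 493 were lower with the floor at the 20th percentile, 113 with it at the 60th and 105 with a pseudocount, against 207. The planned search of protein sequences for destruction motifs was not run, and the cause of these shifts was not tested.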
